A study of Rattus norvegicus with 105 samples.

Results

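The 3 libraries described here came from primary rat hepatocytes exposed for 24 hours to 50 µM benzo[a]pyrene (BaP), a polycyclic aromatic hydrocarbon that the labels call an activator of the aryl hydrocarbon receptor (AhR). They were chosen by their label, and they are 3 of 105 libraries in 35 groups of 3. The series asked how rat liver cells respond to small nitroalkanes, and BaP served in it as a reference compound. RNA was measured with TempO-Seq, in which 2 short DNA oligonucleotides bind side by side on a target RNA, are ligated, and are amplified and counted. The BaP wells were set against 3 wells with DMSO, the solvent control, and against 3 wells with medium alone. Further comparisons used other wells of the same set, 15 with the other 5 reference treatments (10 or 20 µM CITCO, 20 or 40 µM rifampin, or 50 µM WY-14643) and 6 with 0.03 mM nitromethane or nitroethane. All groups shared 1 commercial lot of cells from female Sprague-Dawley rats, plated on collagen in Williams' E medium with 10% fetal bovine serum. Replicates are thus wells of 1 cell lot, and the p-values hold no variation between animals. DMSO is described as 0.2% in the protocol and titled 0.5, and the labels do not say which solvent the BaP wells held.

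The AhR is a transcription factor that waits in the cytoplasm bound to HSP90. Once a planar aromatic ligand binds, it moves to the nucleus, pairs with ARNT and binds DNA at xenobiotic response elements with the core GCGTG. In hepatocytes its best known targets are the cytochromes P450 of family 1, which oxidise BaP. Epoxide hydrolase and the P450s together make diol epoxides that bind DNA, while glutathione transferases, glucuronosyltransferases and quinone reductases detoxify other BaP metabolites.

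The 9 libraries of BaP, DMSO and medium held 7982203 to 8967687 counts each, and 13675 to 13820 probes had a count in each. At that depth 3 counts, taken as the floor of detection, are worth 0.334 to 0.376 CPM (counts per 1000000 counts of the library), counting error only. BaP replicate 3 stood farther from the other BaP libraries than these stood from each other, so counts are also given without it. BaP wells lay in plate row C, DMSO wells in row B and medium wells in row A, so treatment and plate row cannot be told apart in these comparisons. The nitroalkane wells at 0.03 mM shared row C with BaP. They lay in plate columns 4 to 9, while the BaP, DMSO and medium wells lay in columns 10 to 12. Treatment and plate column thus cannot be told apart in the nitroalkane comparison. The wells held hepatocytes by their markers, with albumin (Alb) at 2548 to 3011 CPM in BaP wells, 3349 to 3870 CPM in DMSO wells and 1974 to 2548 CPM in medium wells. Markers of lymphocytes, endothelium and Kupffer cells were scarce. None of the lymphocyte markers, 1 of 13 endothelial markers and 4 of 17 Kupffer cell probes passed the filter on low counts, and none of those that passed differed between BaP and DMSO. Kupffer cell markers summed to 8.18 to 8.73 CPM in BaP wells, 5.65 to 8.52 CPM in DMSO wells and 3.02 to 5.51 CPM in medium wells, with 3 of them at 0 in all 9 libraries. Of 16 stellate cell and fibroblast probes 2 passed the filter, and neither differed between BaP and DMSO. These markers summed to 312 to 376 CPM in BaP wells, 401 to 415 CPM in DMSO wells and 334 to 382 CPM in medium wells. Nearly all of that came from the 2 probes that passed the filter. In all 9 libraries 6 of the 16 probes were at 0, Col1a1, Pdgfrb and Dcn included. The part of other cells in the results was not tested.

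BaP changed 1110 of 12102 tested probes against DMSO, or 9.17%, at an adjusted p under 0.05 by edgeR's quasi-likelihood test with Benjamini-Hochberg adjustment. Of these, 496 rose (4.1% of those tested) and 614 fell (5.07%). Without BaP replicate 3 the count was 1079, and only 841 of the 1110 were among these. The rises were the steeper ones. A log2 change of at least 3 was seen in 22 rises and in 7 falls, and the median size was 0.72 for rises and 0.62 for falls. Over all tested probes the median log2 change was 0.00. Against medium 2382 probes differed (19.7%), of which 1126 were higher (9.3%) and 1256 lower (10.4%). The count was 2408 without BaP replicate 3, with 1922 of the 2382 among these. DMSO and medium wells also differed, at 855 probes (7.06%). A stricter call asked for the same direction against DMSO and against medium. It was met by 796 probes (6.58%), 348 higher (2.88%) and 448 lower (3.7%). It was met by 797 without BaP replicate 3, with 623 of the 796 among these. Both contrasts use the same BaP libraries. Against the 5 other reference treatments 2337 probes differed (19.3%), 9.69% higher and 9.62% lower. From the nitroalkane wells of the same plate row 2508 of 11635 differed (21.6%), 10.4% higher and 11.2% lower. Against all 4 comparators in 1 direction, 719 probes were called (5.94%), 2.66% higher and 3.28% lower. For the statements on overlap made of single genes, every BaP library lay above every DMSO library in 16.2% of all tested probes and below in 9.44%, and above every medium library in 17% and below in 15.5%.

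The promoters of the genes with the largest rises are shown for the AhR core motif, for those genes called against both controls that have an entry in RefSeq's table (rat build GRCr8, 250 bases before to 50 bases after the start of the gene). Capitals mark GCGTG, or CACGC where the motif lies on the other strand, and matches may adjoin. Cyp1b1 lies on the + strand at chr6:21094315-21094614, Rbm24 on the - strand at chr17:18493579-18493878, and Cyp1a2 on the - strand at chr8:66978100-66978399. Gsta2 lies on the - strand at chr8:88077043-88077342, Scn4b on the + strand at chr8:54343623-54343922, and Ackr3 on the + strand at chr9:98247104-98247403.
Cyp1b1: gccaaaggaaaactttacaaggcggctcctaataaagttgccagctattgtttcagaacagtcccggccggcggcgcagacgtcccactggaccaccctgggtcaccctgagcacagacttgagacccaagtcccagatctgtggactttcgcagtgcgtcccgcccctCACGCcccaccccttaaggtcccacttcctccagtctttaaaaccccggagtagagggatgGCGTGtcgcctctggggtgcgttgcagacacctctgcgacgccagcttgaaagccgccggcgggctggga
Rbm24: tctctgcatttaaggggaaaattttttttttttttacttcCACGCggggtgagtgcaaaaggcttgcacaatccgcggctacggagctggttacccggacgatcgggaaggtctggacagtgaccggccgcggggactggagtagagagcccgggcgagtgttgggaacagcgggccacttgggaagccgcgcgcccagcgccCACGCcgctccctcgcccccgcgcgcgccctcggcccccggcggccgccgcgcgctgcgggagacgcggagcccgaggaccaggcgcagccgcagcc
Cyp1a2: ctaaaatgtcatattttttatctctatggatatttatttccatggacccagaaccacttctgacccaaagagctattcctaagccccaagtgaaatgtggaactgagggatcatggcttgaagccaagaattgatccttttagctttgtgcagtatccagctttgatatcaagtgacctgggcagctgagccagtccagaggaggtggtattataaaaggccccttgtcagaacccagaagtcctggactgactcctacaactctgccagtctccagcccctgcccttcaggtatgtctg
Gsta2: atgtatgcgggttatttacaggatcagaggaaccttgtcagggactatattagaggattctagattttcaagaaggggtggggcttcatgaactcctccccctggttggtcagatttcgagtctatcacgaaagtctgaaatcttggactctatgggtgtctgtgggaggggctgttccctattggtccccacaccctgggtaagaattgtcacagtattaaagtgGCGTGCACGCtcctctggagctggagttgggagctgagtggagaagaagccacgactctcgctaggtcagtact
Scn4b: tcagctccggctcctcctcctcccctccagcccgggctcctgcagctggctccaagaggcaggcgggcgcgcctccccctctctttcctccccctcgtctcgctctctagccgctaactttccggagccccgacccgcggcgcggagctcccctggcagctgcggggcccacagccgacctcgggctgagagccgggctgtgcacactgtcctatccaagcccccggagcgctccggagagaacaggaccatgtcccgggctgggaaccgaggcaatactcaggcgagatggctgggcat
Ackr3: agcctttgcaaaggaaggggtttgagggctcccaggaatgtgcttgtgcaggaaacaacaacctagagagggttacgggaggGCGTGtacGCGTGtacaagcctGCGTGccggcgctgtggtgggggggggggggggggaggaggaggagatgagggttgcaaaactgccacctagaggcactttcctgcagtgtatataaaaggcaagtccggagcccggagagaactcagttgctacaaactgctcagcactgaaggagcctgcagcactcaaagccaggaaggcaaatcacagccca
In these windows Cyp1b1 held 2 matches, starting 81 and 20 bases before the gene start, and Rbm24 held 2, starting 210 and 47 bases before it. Gsta2 held 2 that adjoin, 24 and 19 bases before the start, and Ackr3 held 3 within a short stretch that begins 168 bases before it. Cyp1a2 and Scn4b held none. Of all 24206 rat promoters of this length, 31.8% held the motif on either strand. Among the 7907 of 11501 tested genes that have an entry, 51.0% held it, so a match does not set a gene apart. Fewer than 80% of the tested genes have an entry, and no test compared groups of genes for the motif. Cyp1a1, Aldh3a1 and LOC103689942 are not shown.

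The classical AhR targets rose as a group. The list of AhR core targets, like the other lists, was chosen with earlier results of these data known. It includes Cyp1b1, Cyp1a2, Cyp1a1 and Nqo1, the markers by which this treatment is known. Of its 12 tested members, 11 rose against DMSO and none fell, and the same count was found against both controls. Their median log2 change was 4.67 against DMSO and 4.21 against medium, beside 0.00 and 0.01 over all probes. Cyp1b1, a P450 that oxidises BaP, had 616, 677 and 697 CPM in BaP wells, against 0.355, 0.461 and 0.558 CPM in DMSO wells and 1.86, 1.38 and 1.02 CPM in medium wells. The groups lay far apart, and the log2 change was 10.39 ± 0.23 (SE, adjusted p = 1.34e-24, edgeR), with DMSO near the floor. Cyp1a2, which metabolises aromatic amines and caffeine, had 1410, 1543 and 931 CPM in BaP wells, against 8.05, 5.64 and 5.35 CPM in DMSO wells and 7.54, 7.52 and 6.26 CPM in medium wells. Replicate 3 was the lowest of the BaP libraries and still far above both controls, at a log2 change of 7.62 ± 0.33 against DMSO. Cyp1a1, a main BaP oxidase of exposed liver, had 481, 497 and 445 CPM in BaP wells, against 12.7, 8.18 and 7.36 CPM in DMSO wells and 21.2, 20.6 and 14.1 CPM in medium wells. Its log2 change was 5.60 ± 0.29 against DMSO and 4.65 against medium. Aldh3a1, an aldehyde dehydrogenase, reached 3008, 3312 and 3080 CPM in BaP wells, against 87.6, 86.2 and 83.6 CPM in DMSO wells and 50.3, 49.5 and 53.2 CPM in medium wells. Nqo1, which reduces BaP quinones by a pair of electrons, had 559, 616 and 472 CPM in BaP wells, against 29.5, 30.2 and 34.7 CPM in DMSO wells and 40.7, 36.7 and 41.3 CPM in medium wells (log2 change 4.07 ± 0.15 against DMSO). No BaP library of these genes overlapped with a control library.

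**Figure D1:**
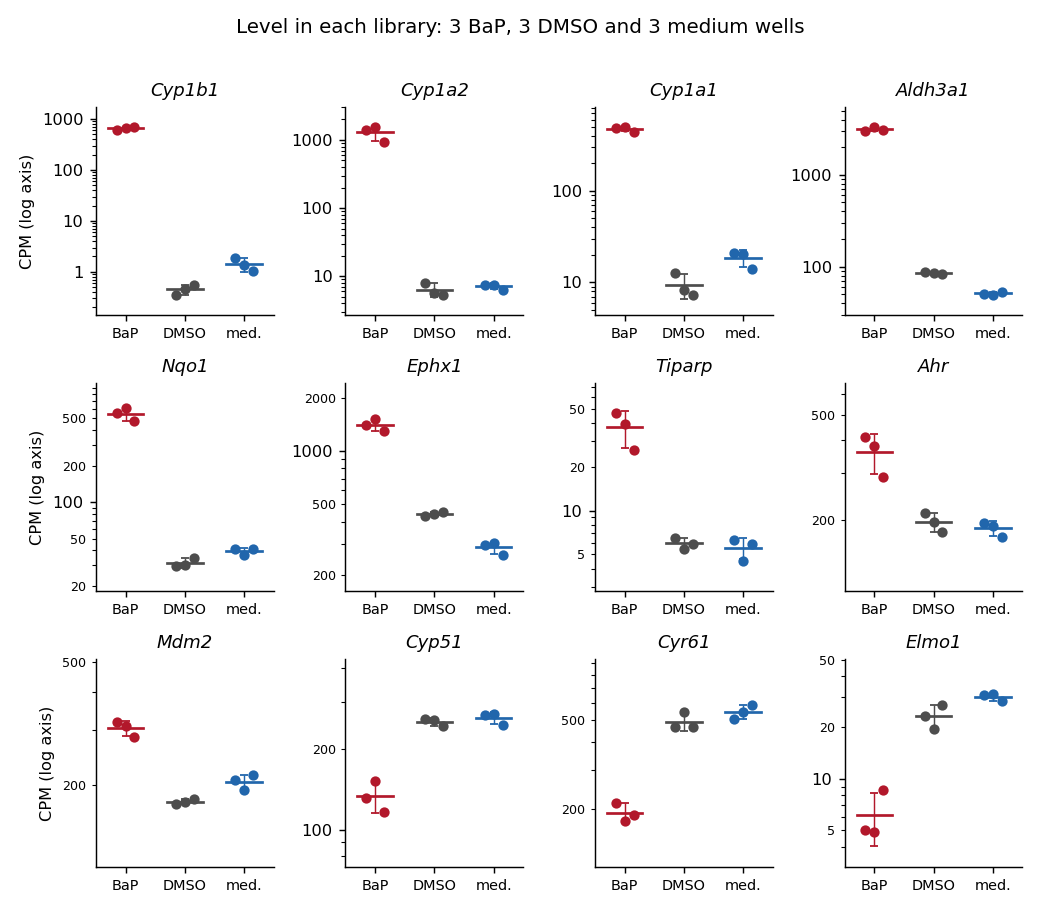
CPM on a log axis of 12 genes in each library of BaP, DMSO and medium wells; points are libraries, the bar is the mean and the error bar the SD (n = 3 each), and the probe with the highest level is shown where a gene has several. For Cyp1b1 the BaP libraries sit at 616 to 697 CPM, above all DMSO libraries (0.355 to 0.558 CPM), while for Elmo1 and Cyp51 the BaP libraries sit below both controls.

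The plot of levels by library also shows the receptor itself and its feedback genes. Ahr had 411, 379 and 290 CPM in BaP wells, against 213, 197 and 179 CPM in DMSO wells and 195, 190 and 173 CPM in medium wells, a log2 change of 0.81 ± 0.13 against DMSO (adjusted p = 9.45e-05, edgeR) with no overlap. Tiparp, an ADP-ribosyltransferase that limits AhR activity, had 46.7, 39.1 and 26.0 CPM in BaP wells, against 6.51, 5.41 and 5.91 CPM in DMSO wells and 6.26, 4.51 and 5.92 CPM in medium wells. Ahrr, the AhR repressor, had 7.26, 6.29 and 10.9 CPM in BaP wells, against 0.237, 0.346 and 0.335 CPM in DMSO wells and 1.04, 0.626 and 0.569 CPM in medium wells. All 3 genes rose against both controls. They were the 3 of 14 tested probes on the list of AhR pathway components (13 genes) that changed against DMSO. Tiparp and Ahrr are also counted among the AhR core targets. The partner Arnt, at 11.1, 9.08 and 16.8 CPM in BaP wells and 11.5, 10.7 and 12.5 CPM in DMSO wells, did not pass (log2 change 0.03). Xdh, xanthine dehydrogenase, rose by 0.85 ± 0.21, and its call ended without BaP replicate 2 (0.63, adjusted p = 0.0861, edgeR). The hormone gene Fgf21 was the only tested core target that did not pass, at a log2 change of 0.17 ± 0.18.

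Enzymes that act on BaP metabolites after the first oxidation rose together with the P450s. Of 15 probes of BaP metabolism partners, 8 rose and 1 fell against DMSO, and 7 rose against both controls. Epoxide hydrolase Ephx1, which turns BaP epoxides into dihydrodiols, had 1404, 1514 and 1298 CPM in BaP wells, against 433, 441 and 452 CPM in DMSO wells and 293, 304 and 260 CPM in medium wells (log2 change 1.61 ± 0.10 against DMSO and 2.28 against medium). Akr7a3, an aldo-keto reductase known in rat for reducing aflatoxin dialdehyde, had 294, 282 and 304 CPM in BaP wells, against 68.5, 65.5 and 59.9 CPM in DMSO wells and 67.5, 63.8 and 68.7 CPM in medium wells. Cytochrome b5 (Cyb5a), an electron donor to P450s, rose by 0.80 ± 0.08.

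Conjugating enzymes rose in part. Glutathione transferases rose in 10 and fell in 1 of 21 probes against DMSO, with a median log2 change of 0.45, and 8 rose and 1 fell against both controls. Gsta2, an alpha-class transferase, had 651, 689 and 701 CPM in BaP wells, against 22.5, 18.3 and 18.3 CPM in DMSO wells and 8.93, 11.3 and 12.6 CPM in medium wells. Gsta5 had 506, 482 and 354 CPM in BaP wells, against 21.7, 10.1 and 16.4 CPM in DMSO wells and 7.31, 8.52 and 8.43 CPM in medium wells. These alpha-class genes are near copies of one another, and how the probes split reads between them is not known. Gsta4, which conjugates the lipid aldehyde 4-hydroxynonenal, rose by 2.09 ± 0.15, and the abundant Gstp1 rose by 0.68 ± 0.09. The mitochondrial and peroxisomal Gstk1 was the member that fell (-0.50 ± 0.10). Of 19 tested probes of glucuronosyltransferases and sulfotransferases, 5 rose and none fell, against DMSO and against both controls. Ugt2b17, a steroid-conjugating member, had 57.1, 60.8 and 55.8 CPM in BaP wells with its higher-changing probe, against 14.3, 15.1 and 11.4 CPM in DMSO wells and 12.1, 10.0 and 9.79 CPM in medium wells. Ugdh, which makes UDP-glucuronic acid for these enzymes, rose by 1.03 ± 0.17.

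NRF2 is the transcription factor that answers electrophiles, and many BaP quinones are electrophiles. Its gene Nfe2l2, here also on the list of AhR core targets, had 550, 531 and 563 CPM in BaP wells, against 279, 264 and 260 CPM in DMSO wells and 278, 258 and 264 CPM in medium wells (log2 change 0.97 ± 0.08). Among 33 tested probes of NRF2 targets, 16 rose and none fell against DMSO, and 13 rose against both controls. The median log2 change was 0.48 against DMSO and 0.41 against medium. Ptgr1, which reduces unsaturated aldehydes and ketones, had 630, 651 and 703 CPM in BaP wells, against 91.4, 81.5 and 93.7 CPM in DMSO wells and 112, 103 and 123 CPM in medium wells. The aldo-keto reductase Akr1b8 had 1126, 1035 and 1348 CPM in BaP wells, against 150, 167 and 232 CPM in DMSO wells and 300, 296 and 424 CPM in medium wells. All BaP libraries lay above all control libraries for these genes. The glutathione synthesis genes Gclc (0.85) and Gclm (1.03) and the cystine carrier Slc7a11 (1.15 ± 0.22) rose. Heme oxygenase Hmox1 (-0.09) and thioredoxin reductase Txnrd1 (1.00, adjusted p = 0.209, edgeR), both textbook NRF2 targets, did not pass. Txnrd1 had 240, 211 and 70.2 CPM in BaP wells, against 101, 99.2 and 51.4 CPM in DMSO wells and 89.5, 79.9 and 71.3 CPM in medium wells, with BaP replicate 3 low. It passed without that library (1.39, adjusted p = 0.0445, edgeR) and with no filter on low counts (0.99).

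Other P450s moved both ways. Of 33 tested probes, 9 rose and 4 fell against DMSO, and 2 fell without BaP replicate 3. Against both controls 8 rose and 2 fell, with 1 falling without BaP replicate 1 or 3, DMSO replicate 2 or medium replicate 1 or 2. Cyp3a9, a member of the steroid- and drug-oxidising 3A family, had 92, 100 and 94.9 CPM in BaP wells, against 15.6, 15.2 and 14.8 CPM in DMSO wells and 22, 23.8 and 24.9 CPM in medium wells (log2 change 2.59 ± 0.15). Cyp2f4 had 38.5, 29.0 and 27.8 CPM in BaP wells, against 7.22, 6.11 and 6.47 CPM in DMSO wells and 6.73, 5.64 and 2.85 CPM in medium wells. Cyp2b2, the standard marker of the receptor CAR in rat liver, had 28.0, 33.1 and 44.0 CPM in BaP wells, against 6.75, 11.2 and 6.91 CPM in DMSO wells and 1.39, 2.38 and 2.28 CPM in medium wells. Here DMSO itself lay above medium, by 2.08 on the log2 scale. Its relative Cyp2b3 was lower than DMSO (-0.93 ± 0.23) and did not differ from medium (0.17, adjusted p = 0.675, edgeR). Among 11 tested CAR and PXR targets 5 rose and 2 fell against DMSO, and 3 rose without DMSO replicate 2 or DMSO replicate 3.

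Aldehyde and retinoid genes rose in 10 of 27 probes with none falling, in 9 against both controls, and in 6 against DMSO without BaP replicate 2. Aldh1a1, a retinal dehydrogenase, had 1303, 1277 and 1165 CPM in BaP wells, against 630, 607 and 654 CPM in DMSO wells and 359, 348 and 405 CPM in medium wells. Aldehyde oxidase Aox1 had 96.3, 99.9 and 94.9 CPM in BaP wells, against 31.1, 34.3 and 35.9 CPM in DMSO wells and 26.1, 26.9 and 26.5 CPM in medium wells. For both genes the BaP libraries stood clear of the controls. Genes of NAD and one-carbon metabolism rose in 6 and fell in 1 of 27 probes, and none fell without BaP replicate 2 or without DMSO replicate 2 or 3. Of these, the kynurenine pathway enzymes Kmo (2.08 ± 0.35) and Haao (2.22 ± 0.46) rose at levels of a few CPM. Hsd17b2, which oxidises estradiol to estrone, had 14.5, 10.4 and 11.2 CPM in BaP wells, against 0.710, 0.806 and 0.892 CPM in DMSO wells and 1.97, 0.752 and 1.82 CPM in medium wells. Another probe of Hsd17b2 had no count in any of these wells.

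**Figure D2:**
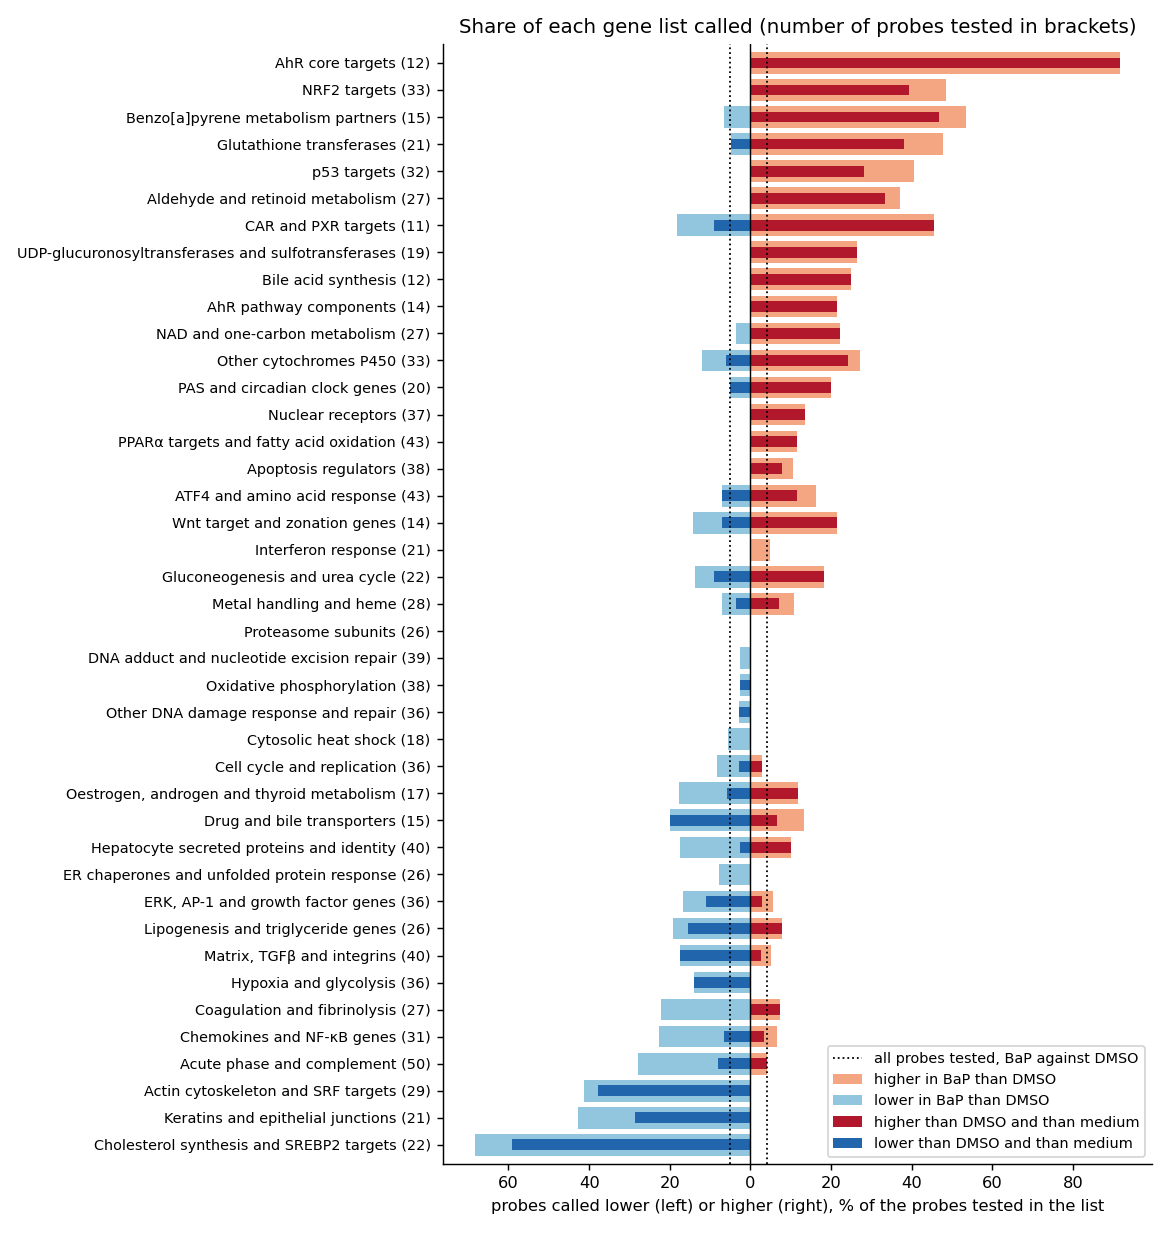
Share in percent of the tested probes of each list that were called higher or lower in BaP wells against DMSO wells, for lists with at least 10 tested probes; dotted lines mark the share over all probes (4.1% higher and 5.07% lower). AhR core targets (11 of 12 higher) and cholesterol genes (15 of 22 lower) reach farthest on their sides.

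The plot of calls by list shows which groups lay beyond the background share. On the side of higher levels, p53 targets were among them. p53 is the transcription factor that DNA damage activates, and BaP diol epoxides form DNA adducts. Of 32 tested probes of p53 targets 13 rose and none fell against DMSO, with a median log2 change of 0.37. Against medium 9 were higher and 1 was lower (3 without BaP replicate 3), the median was 0.10, and 9 rose against both controls. Mdm2, the ubiquitin ligase that restrains p53, had 319, 309 and 286 CPM in BaP wells, against 173, 176 and 179 CPM in DMSO wells and 207, 192 and 214 CPM in medium wells (log2 change 0.73 ± 0.09, adjusted p = 1.58e-06, edgeR). The kinase gene Plk2 had 284, 263 and 316 CPM in BaP wells, against 131, 128 and 130 CPM in DMSO wells and 128, 163 and 143 CPM in medium wells. In both genes every BaP library lay above every control library. The cell cycle inhibitor Cdkn1a (p21) had 9.53, 11.8 and 15 CPM in BaP wells, against 4.62, 5.07 and 5.46 CPM in DMSO wells and 5.92, 8.27 and 10.1 CPM in medium wells. It rose against DMSO (1.19 ± 0.27, adjusted p = 0.00375, edgeR), and against medium its libraries overlapped and the test was not passed (0.55, adjusted p = 0.152, edgeR). Gdf15, a secreted stress factor, rose by 1.14 ± 0.16 and Phlda3, an AKT inhibitor, by 0.64 ± 0.12. Ephx1, described above, is counted on this list too. Classical members that did not pass were the death effector Bax (0.06), the repair genes Xpc (-0.06) and Ddb2 (0.66) and the BH3-only gene Pmaip1 (-0.65), which was lower than medium (-1.73).

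Repair genes as a group stayed near the background. Of 39 probes of adduct and nucleotide excision repair none rose and 1 fell, and the median log2 change was -0.01. The member that fell was Pcna, the replication clamp, with 30.5, 32.2 and 39.6 CPM in BaP wells, 39.9, 48.7 and 48.2 CPM in DMSO wells and 36.4, 41.5 and 51.0 CPM in medium wells. Its fall did not pass without BaP replicate 1 or 2 or without DMSO replicate 2 or 3 (-0.46 to -0.42). Of 36 probes of other damage response and repair none rose and 1 fell, the exonuclease Exo1 (-1.99 ± 0.36), which was also lower than medium (-1.51, or -1.08 and not passing without medium replicate 3). The proliferation marker Mki67 had 12.6, 9.66 and 13.3 CPM in BaP wells, against 26.5, 27.3 and 33.1 CPM in DMSO wells and 17.5, 18.9 and 26.6 CPM in medium wells, with no overlap. Cell cycle and replication genes rose in 1 and fell in 3 of 36 probes, with 1 falling without BaP replicate 1, DMSO replicate 2 or DMSO replicate 3, and the median was -0.30. Of 38 probes of apoptosis regulators 4 rose and none fell, and 2 rose without BaP replicate 2 or 3 or without DMSO replicate 2 or 3. Bmf, a BH3-only gene, had 36.1, 41.0 and 72.0 CPM in BaP wells, against 14.1, 12.3 and 15.6 CPM in DMSO wells and 15.9, 17.2 and 18.8 CPM in medium wells.

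Genes of cholesterol synthesis fell as a group. SREBP2 is the transcription factor that raises these genes when sterols are low. Of 22 tested members 15 fell and none rose against DMSO, and 13 fell against both controls. The median log2 change was -0.76 against DMSO and -0.76 against medium. Insig1, the sterol-sensing anchor of the SREBPs, had 379, 347 and 242 CPM in BaP wells, against 879, 783 and 747 CPM in DMSO wells and 823, 770 and 650 CPM in medium wells. The groups did not overlap, and its log2 change against DMSO was -1.37 ± 0.18 (adjusted p = 2.96e-05, edgeR). Enzymes fell at several steps of the pathway. Early on these were Hmgcs1 (-1.31 ± 0.21), Mvd (-1.29 ± 0.17) and Idi1 (-1.41 ± 0.20). Of the later sterol steps, Cyp51, the lanosterol demethylase, had 132, 152 and 116 CPM in BaP wells, against 259, 256 and 243 CPM in DMSO wells and 268, 270 and 245 CPM in medium wells, and Msmo1 fell by 1.58 on the log2 scale. Against the other reference treatments 15 of the 22 were lower and 1 was higher. Against the nitroalkane wells of the same plate row 16 were lower and 1 was higher. These comparisons use the same BaP libraries and are not separate replications. Lipogenic genes rose in 2 and fell in 5 of 26 probes against DMSO. Neither of the rises was left without BaP replicate 3 or without DMSO replicate 2, and 1 was left without DMSO replicate 1 or 3 or without any 1 medium library. Among the falls were Acly (-0.79) and Fasn (-0.56), both enzymes of the path from citrate to fatty acids.

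**Figure D3:**
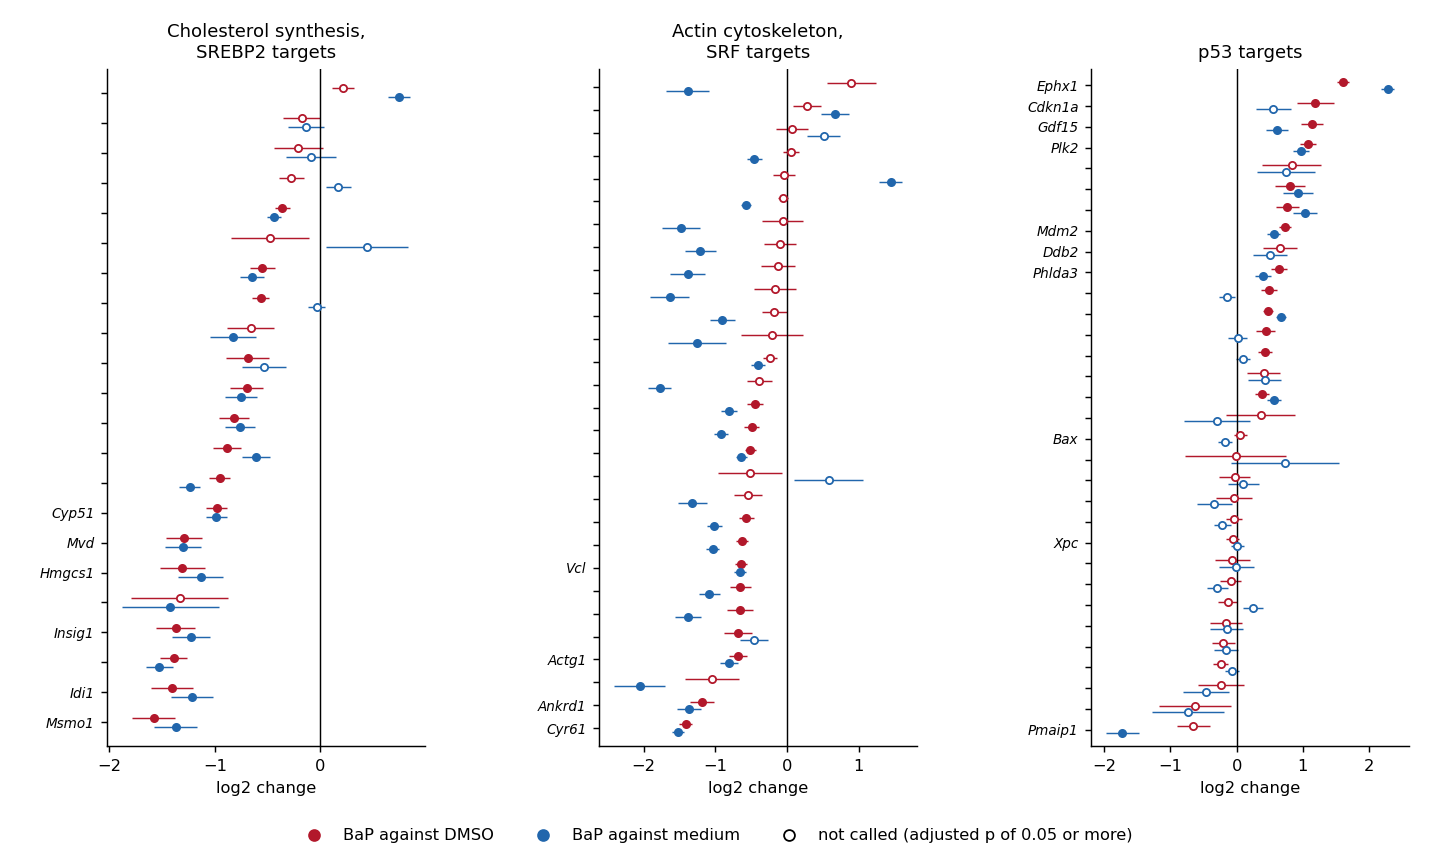
Log2 change ± SE of each tested member of the cholesterol, actin and SRF, and p53 lists in BaP wells against DMSO wells (red) and against medium wells (blue), with open symbols where the adjusted p was not under 0.05. The members named in the text are labelled. The labelled cholesterol members lie below 0, and p53 members called against DMSO lie above 0.

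Genes of actin fibres and cell shape formed a further group that was lower. Serum response factor (SRF), with its actin-sensing cofactors, and the YAP coactivators drive many of them. Of 29 tested probes of actin cytoskeleton and SRF targets 12 fell and none rose against DMSO, and 11 fell against both controls. The median log2 change was -0.44 against DMSO and -1.01 against medium. DMSO wells were themselves lower than medium wells in 15 of the 29 probes and higher in 1, so the size of the fall depended on the control. Against the nitroalkane wells of the same plate row 25 were lower and 1 was higher. Cyr61, a matrix-linked YAP and SRF target, had 214, 176 and 189 CPM in BaP wells, against 467, 544 and 464 CPM in DMSO wells and 508, 543 and 587 CPM in medium wells (log2 change -1.41 ± 0.09, adjusted p = 8.39e-13, edgeR). Thbs1, thrombospondin 1, which is on none of the lists, had 453, 345 and 465 CPM in BaP wells, against 1280, 1558 and 1261 CPM in DMSO wells and 1301, 1212 and 1471 CPM in medium wells. In both genes the DMSO and medium libraries overlapped, and the BaP libraries lay below all of them. Cytoplasmic actin Actg1 had 3395, 3083 and 2381 CPM in BaP wells, against 4606, 4671 and 4420 CPM in DMSO wells and 5041, 4822 and 5436 CPM in medium wells. The focal adhesion gene Vcl (-0.64 ± 0.08) and Ankrd1 (-1.19 ± 0.17) also fell.

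Epithelial and matrix genes moved the same way. Keratins and junction genes fell in 9 of 21 probes with none rising, in 6 against both controls, and their median was -0.49. The main hepatocyte keratins were among them, Krt8 with 2546, 2699 and 3033 CPM in BaP wells, against 3837, 4361 and 4213 CPM in DMSO wells and 3778, 3898 and 3776 CPM in medium wells. Its partner Krt18 fell by 0.67 on the log2 scale. Cdh1, E-cadherin, had 314, 285 and 292 CPM in BaP wells, against 460, 493 and 514 CPM in DMSO wells and 493, 451 and 498 CPM in medium wells. Matrix, TGFβ and integrin genes rose in 2 and fell in 7 of 40 probes. The rises came to 1 without BaP replicate 1 or 2 or without DMSO replicate 2 or 3. The falls included the basement membrane chains Lamc1 (-0.62 ± 0.07) and Col4a2 (-0.70 ± 0.10). Markers shared with bile duct cells, which hepatocytes in culture can also express, summed to 744 to 897 CPM in BaP wells, 951 to 1133 CPM in DMSO wells and 1200 to 1336 CPM in medium wells, and 3 of 9 probes fell against DMSO.

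Hypoxia genes fell in 5 of 36 probes with none rising, and the same 5 against both controls, with a median of -0.22. Ndrg1, a stress gene raised by low oxygen, had 312, 300 and 261 CPM in BaP wells, against 559, 561 and 579 CPM in DMSO wells and 683, 736 and 651 CPM in medium wells. Adm, the vasodilator peptide adrenomedullin, had 41.3, 38.4 and 35.6 CPM in BaP wells, against 104, 112 and 95.8 CPM in DMSO wells and 110, 95.7 and 111 CPM in medium wells. Both stood clear of the controls. Calcb, a vasodilator peptide on none of these lists, had 171, 150 and 146 CPM in BaP wells, against 594, 592 and 611 CPM in DMSO wells and 506, 460 and 515 CPM in medium wells (log2 change -2.00 ± 0.12). The vasoconstrictor gene Edn1 fell by 1.42 on the log2 scale. Of 36 probes of ERK, AP-1 and growth factor genes 2 rose and 6 fell, and 1 rose without BaP replicate 1 or 2 or without any 1 DMSO library. Hbegf, an EGF receptor ligand, fell by 1.24. The largest fall of a probe above 10 CPM was Crct1, named for its cysteine-rich C-terminus, with 3.06, 2.56 and 3.25 CPM in BaP wells, against 39.7, 55.3 and 49.0 CPM in DMSO wells and 19.7, 30.7 and 25.7 CPM in medium wells. The list of circadian clock genes and genes of the PAS domain family, to which AhR belongs, rose in 4 and fell in 1 of 20 probes. Per2 rose by 1.08 ± 0.18, while the repressor Bhlhe40 had 94.7, 95.6 and 158 CPM in BaP wells, against 204, 236 and 274 CPM in DMSO wells and 296, 312 and 319 CPM in medium wells.

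Plasma protein genes depended on the control. Acute phase and complement genes rose in 2 and fell in 14 of 50 probes against DMSO, but were higher in 21 and lower in 5 against medium, and 4 fell against both. Against DMSO 9 fell without BaP replicate 1, and 1 rose without BaP replicate 2 or without any 1 DMSO library. DMSO wells were higher than medium wells in 28 of these probes (3.88% of all probes) and lower in 1 (3.19% of all). Fga, a fibrinogen chain, had 3812, 4581 and 3932 CPM in BaP wells, against 6110, 6306 and 5728 CPM in DMSO wells and 1759, 1961 and 1255 CPM in medium wells. Its BaP libraries thus lay between the controls, at -0.62 against DMSO and 1.29 against medium. The difference from DMSO did not pass without BaP replicate 1 or 3 or without DMSO replicate 1 or 2 (-0.61 to -0.57). Complement C3 had 1011, 1164 and 1043 CPM in BaP wells, against 1844, 1713 and 1686 CPM in DMSO wells and 988, 1032 and 804 CPM in medium wells, and it differed from DMSO only (-0.77, and 0.17 against medium). A2m, the rat acute phase protease inhibitor α2-macroglobulin, lay below both. It had 937, 1016 and 587 CPM in BaP wells, against 4842, 5099 and 3479 CPM in DMSO wells and 2427, 2186 and 1502 CPM in medium wells. The iron hormone Hamp was at -1.77 ± 0.25 against DMSO and did not differ from medium (-0.35). Coagulation genes rose in 2 and fell in 6 of 27 probes against DMSO, with 2 falling without BaP replicate 3 or DMSO replicate 2 and 3 without DMSO replicate 1, and were higher in 14 and lower in 1 against medium, or higher in 9 without medium replicate 3. In all, 15 probes were called in opposite directions against the 2 controls (0.124%), Fga among them.

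**Figure D4:**
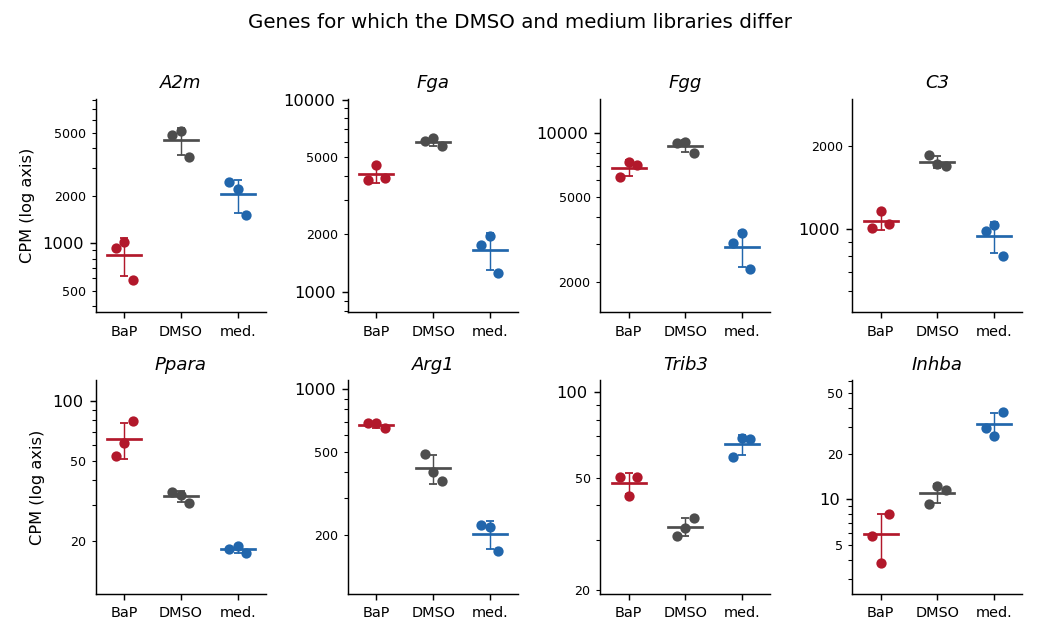
CPM in each library of BaP, DMSO and medium wells for 8 genes in which the controls differ; points are libraries, bars are means and error bars the SD (n = 3 each). A2m lies below both controls, Fga lies between them, and Inhba and Trib3 show medium as the highest group.

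The same dependence held for genes of fat oxidation and of amino acid stress, as the plot of genes that differ between the controls shows. PPARα targets and fatty acid oxidation genes rose in 5 of 43 probes against DMSO with none falling, while 23 were higher against medium, and DMSO was higher than medium in 24. Ppara, the receptor gene, had 53.1, 61.1 and 78.7 CPM in BaP wells, against 35.2, 33.6 and 31.0 CPM in DMSO wells and 18.2, 18.9 and 17.4 CPM in medium wells. The groups formed 3 separate steps with BaP on top. The urea cycle enzyme Arg1 had the same order (689, 689 and 651 CPM in BaP wells, 490, 401 and 361 CPM in DMSO wells, 223, 218 and 166 CPM in medium wells). ATF4, the transcription factor of the amino acid response, has targets that rose in 7 and fell in 3 of 43 probes against DMSO, but were higher in 6 and lower in 26 against medium. Trib3, an ATF4 target that inhibits AKT, had 50.0, 43.2 and 50.2 CPM in BaP wells, against 31.1, 33.3 and 36.1 CPM in DMSO wells and 59.0, 68.7 and 68.4 CPM in medium wells. Inhba, a subunit of activin, lay below both controls, at -0.97 against DMSO (-0.75 and not passing without BaP replicate 2) and -2.42 against medium. Proteasome subunits rose in 0 and fell in 0 of 26 probes against DMSO by edgeR's test.

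A set of changes followed no list but the length of the gene. The classes of length were chosen after the data were seen. The span of a gene on GRCr8, introns included, was taken from RefSeq and found for 11082 of the 12102 tested probes, or 91.6%. Among probes with a mean of at least 10 CPM the median log2 change against DMSO was 0.00 for genes of up to 10 kb (1656 probes) and 0.01 for genes of 10 to 50 kb (3375 probes). It was -0.17 for genes of 200 to 400 kb (198 probes) and -0.24 for genes over 400 kb (61 probes). Against medium these medians were 0.00, 0.03, -0.18 and -0.27. Against the other reference treatments genes over 400 kb were at -0.21, and against the nitroalkane wells of the same plate row at -0.23. Between DMSO and medium the longest class was at -0.01. Probes lower than both controls made up 4.65% of the shortest class, 4.42% of the next, 13.1% of genes of 200 to 400 kb and 19.7% of genes over 400 kb, beside 5.11% at any length. Probes higher than both made up 4.95%, 4%, 3.03% and 4.92% of the same classes, beside 3.83% at any length. These 4 classes held genes of like levels, with median CPM of 50.9, 46.1, 32.5 and 42.3.

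Every BaP library showed the fall in long genes on its own. The median of genes over 200 kb minus that of genes up to 50 kb, each probe taken as its log2 deviation from the mean of the 24 reference libraries, was -0.23, -0.20 and -0.18 in the BaP wells. It was -0.03, 0.01 and -0.03 in the DMSO wells and 0.01 in each medium well. No library of CITCO, rifampin, WY-14643 or the nitroalkanes at 0.03 mM lay below -0.012, the value of WY-14643 replicate 3, and the WY-14643 wells were at 0.16, 0.21 and -0.01. Where the probes lie along their genes was not used, and the cause was not tested.

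**Figure D5:**
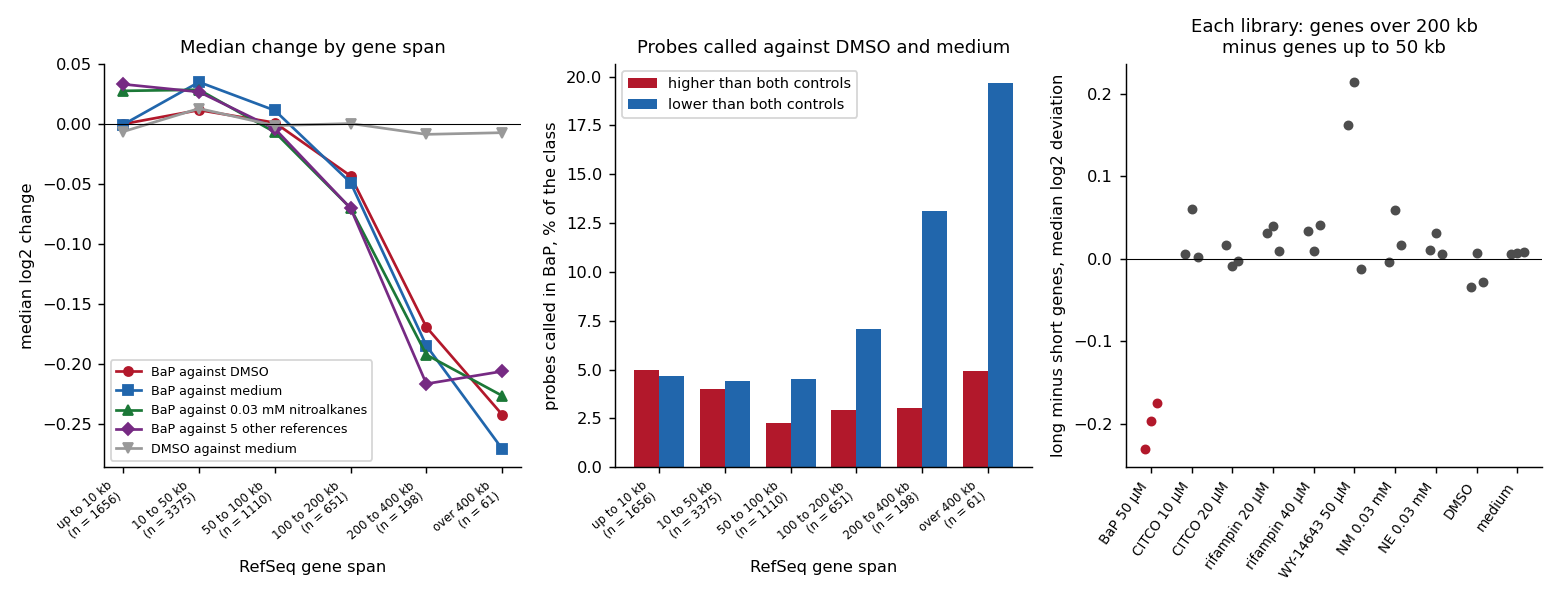
Median log2 change by class of gene span for BaP against each comparator and for DMSO against medium, percent of probes called against both controls in each class, and the median of genes over 200 kb minus genes up to 50 kb in each library (log2). The lines of BaP go down to between -0.21 and -0.27 in genes over 400 kb, DMSO against medium stays at -0.01, and the 3 BaP libraries lie at -0.23 to -0.18.

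Among genes over 400 kb with at least 10 CPM, 12 probes were lower than both controls and 3 were higher, and those described here were picked after their values were seen. Elmo1, which helps activate Rac and spans 536 kb, had 4.99, 4.89 and 8.63 CPM in BaP wells, against 23.3, 19.5 and 27.1 CPM in DMSO wells and 31.1, 31.4 and 28.5 CPM in medium wells. Gphn, gephyrin, a scaffold protein that also makes the molybdenum cofactor, had 11.6, 12 and 15.5 CPM in BaP wells, against 22.9, 26.0 and 24.6 CPM in DMSO wells and 21.9, 21.6 and 23.3 CPM in medium wells. The formin Diaph3 had 10.7, 13.8 and 17.6 CPM in BaP wells, against 27.9, 33.1 and 25.3 CPM in DMSO wells and 28.2, 28.1 and 32.1 CPM in medium wells. No BaP library of these 3 genes reached a control library. Dab1, an adaptor of reelin signalling that spans 1121 kb, fell by 1.57 on the log2 scale, and Kalrn, an exchange factor of small GTPases that spans 606 kb, by 1.40 with the more abundant of its probes. The 3 higher genes were Nrg1, Rora and Nfia. Nrg1, a ligand of ERBB receptors that spans 1053 kb, had 182, 187 and 151 CPM in BaP wells, against 102, 92.4 and 88.2 CPM in DMSO wells and 76.8, 80.3 and 77.9 CPM in medium wells. The nuclear receptor gene Rora rose by 0.53 ± 0.12 and the transcription factor gene Nfia by 0.45.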

How the data were processed

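Counts are the authors' deposited raw read counts per detector probe (22253 probes, 105 libraries), with no normalization. Per the submitters' processing notes FastQC and Bowtie were used, along with DESeq2 1.28.1 in R 3.5.3, and their roles are not stated; the genome build is not given in the sources used here. The labels name a human panel, but the symbols are rat symbols. A gene with several probes counts once per probe. Titles give nitroalkane concentrations in µM and the protocol in mM, and mM was used.

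Levels are CPM by library total. Tests used edgeR 4.0.16 (R 4.3.3): filterByExpr (minimum count 10, minimum total 15), TMM, robust dispersions and the quasi-likelihood F test over 24 libraries of set 1 (BaP, DMSO, medium, CITCO, rifampin, WY-14643), with Benjamini-Hochberg adjustment over all 12102 probes and calls under 0.05. The nitroalkane contrast was a separate fit of 9 libraries. Log2 changes are BaP minus control and carry the TMM scaling, and SE is the change divided by the root of F. The code was checked on simulated counts. Replicates differed by more than counting error, with chi-square per degree of freedom of at least 3.57. Named genes were the largest changes past the threshold with groups apart, and list members with the smallest adjusted p or, uncalled, the highest level. Gclc, Gclm, Hmox1, Txnrd1, Hmgcs1, Idi1, Insig1, Alb and the long genes were named outside that rule after their values were seen. Members and the 47 gene lists were chosen with earlier results of these data known. Alternatives were DESeq2 1.42.0, its size factors, no filter, probes summed per gene, a fold minimum, single libraries left out, a replicate block and, chosen after seeing the data, the 9 libraries alone. Results on some genes are not reported here.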

Additional observations from a re-analysis of the deposited data

How the results depend on the processing

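Under DESeq2, DESeq2's size factors in edgeR, no filter on low counts or 1 count per gene, the counts of probes called stayed within 1.5 times of those reported. The fit of BaP and DMSO alone called 717 probes against DMSO (336 higher, 381 lower), of which 688 were among the 1110. With a log2 change of at least 1 asked for as well, 287 probes were called against DMSO, 662 against medium, 186 against both, 229 between DMSO and medium, 594 against the nitroalkane wells and 418 against the other reference treatments. Leaving out 1 library at a time gave 751 to 1099 calls against DMSO, 1733 to 2408 against medium, 581 to 797 against both, and 510 to 787 between DMSO and medium. With BaP libraries alone left out in turn, the range was 1877 to 2737 against the nitroalkane wells and 1511 to 2408 against the other references (1567 without BaP replicate 1, 1511 without BaP replicate 2). Calls between DMSO and medium numbered 510 in the absence of medium replicate 3, and 538 or 565 in that of DMSO replicate 1 or 2. The replicate number was also tried as a block on the 9 libraries, with 1486 calls against DMSO (684 higher, 802 lower), 2800 against medium and 1032 against both, beside 954, 2169 and 705 on the same libraries without the block. BaP, DMSO and medium libraries of the same number lay in the same plate column (10, 11 or 12). Between BaP and DMSO they deviated together in part (r of 0.201, 0.0823 and 0.332). Libraries of different number had r of -0.252 to 0.130. Whether the plate column pairs the wells was not settled, and the main fit did not pair them. Probes of genes over 200 kb lower than DMSO numbered 69 of 520, and 38 to 80 under the alternatives, the lowest from the fit of BaP and DMSO alone. Levels near 0.3 CPM rest on about 3 counts, so the sizes of rises from there are uncertain.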

Other observations

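Some genes on none of the lists also changed, and they were picked after their values were seen. Rbm24, which codes for an RNA-binding protein, had 7.03, 11.9 and 7.40 CPM in BaP wells and no count in any DMSO well, and in medium wells it had 0, 0.251 and 0 CPM. Against the floor of 3 counts in a DMSO library (0.355 CPM) its mean in BaP wells was at least 24.7-fold higher. Ackr3, an atypical receptor that takes up the chemokine CXCL12, had 4.99, 5.24 and 6.16 CPM in BaP wells, against 0.237, 0 and 0.223 CPM in DMSO wells and 0.232, 0 and 0 CPM in medium wells. Scn4b, a regulatory subunit of voltage-gated sodium channels, had 25.3, 24.4 and 28.2 CPM in BaP wells, against 1.30, 0.576 and 0.446 CPM in DMSO wells and 0.232, 0.501 and 0.456 CPM in medium wells. Rbm24 and Ackr3 were under the floor in both controls, and Scn4b was above it in every DMSO library and in medium replicates 2 and 3. At higher levels, the secreted proteoglycan gene Tsku had 209, 196 and 182 CPM in BaP wells, against 45.0, 37.0 and 35.4 CPM in DMSO wells and 39.9, 31.9 and 36.1 CPM in medium wells, a log2 change of 2.26 ± 0.16 (adjusted p = 7.76e-11, edgeR). Csf2, the growth factor GM-CSF, had 1.13, 2.91 and 3.36 CPM in BaP wells, against 8.52, 11.9 and 10.8 CPM in DMSO wells and 10.3, 8.14 and 9.34 CPM in medium wells. Tfrc, the transferrin receptor, had 40.1, 34.5 and 43.1 CPM in BaP wells, against 78.4, 77.6 and 75.6 CPM in DMSO wells and 54.7, 56.9 and 61.5 CPM in medium wells, and no BaP library reached a control library.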
